A study of Mus musculus with 12 samples.

Results

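A set of genes had lower mRNA after stimulation of EL-4 cells in solvent and kept its level after the same stimulation in an inhibitor of protein synthesis. Members were chosen by their response: probe sets with 1 gene symbol whose mean log2 value was lower by 0.8 or more with a phorbol ester and ionomycin (P/I) in DMSO, and lower by no more than 0.2 with P/I in the protein synthesis inhibitor cycloheximide (CHX). Txnip, Arrdc3, Mki67, Top2a, Tpx2 and symbols that start with Cen, Kif, Bub, Aur, Cdc, Ccn, Plk, Zfp or Gm, or end with Rik, were left out by name. The rule found 91 probe sets of 84 genes among 21789 probe sets with 1 symbol, 23410 tested and 35399 in all, because Dennd4a had 7 such probe sets and Ube2h had 2. A further 18 probe sets met both limits and were left out by their symbols.

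EL-4 is a mouse T lymphoma line, and its mRNA was measured on Affymetrix Mouse Gene 1.0ST arrays. In all 4 groups the cells were first held for 30 min in CHX at 10 μg/ml or in its solvent DMSO. The CHX P/I and DMSO P/I cells were then given phorbol 12-myristate 13-acetate (PMA, 10 ng/ml) together with ionomycin (1 μM) for 4 h, while the CHX unstimulated and DMSO unstimulated cells received neither. Each group had 3 biological replicates, which makes 12 arrays. How long the CHX unstimulated cells stayed in CHX is not given in the sources used here, so that a longer time in CHX and the effect of P/I cannot be told apart in any value that compares CHX P/I with CHX unstimulated cells, or CHX with DMSO after P/I. EL-4 is 1 established tumor line, so all arrays share its genome.

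PMA activates protein kinase C and Ras exchange factors, and ionomycin lets calcium into the cell, so that the pair acts downstream of the T cell receptor. An mRNA can decline after such a signal because its synthesis stops or because its decay speeds up, and either step may call for a protein that the cell must first make. CHX blocks translation elongation. It is therefore used to divide responses that need newly made protein from those that do not, with the known limit that blocked ribosomes can themselves stabilize some mRNAs.

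The listed T cell identity genes were high on the arrays, while coreceptor genes outside that list were low. The 9 measured T cell identity genes, from the receptor complex and its proximal kinase Zap70 to surface molecules such as Thy1, Cd2, Cd5 and Cd28, had means over the arrays of log2 7.87 to 12.40. Their summed linear level lay between 12617 and 14392 on all arrays. The coreceptor genes Cd4, Cd8a and Cd8b1 had DMSO unstimulated means of log2 5.09, 5.55 and 5.60. The 9 myeloid markers had means of log2 4.36 to 5.36 with sums of 237 to 275, the 7 B cell markers log2 4.22 to 7.09 with sums of 269.5 to 390.1, and the 7 erythroid and fibroblast markers log2 4.59 to 6.72 with sums of 383 to 487. CHX without P/I moved little of the array: 7 of the 23410 probe sets tested were higher and none lower at an adjusted p under 0.1 from limma, a share of 0.0299%. How long these cells were in CHX is not given, so the count does not show what CHX alone would do over the 4 h of P/I.

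With P/I in DMSO the members were lower by a median of log2 0.97 as the rule required, with differences of -1.83 to -0.80. With P/I in CHX their differences lay between -0.20 and 2.07 with a median of -0.02. These values chose the members and are given as a description. In limma 83 of the 91 were lower with P/I in DMSO, where 8.42% of all probe sets were. All DMSO P/I arrays read below all DMSO unstimulated arrays for 80 of them, as for 12.7% of all probe sets. With P/I in CHX, 65 members stayed within 0.2 of CHX unstimulated cells in either direction. The remaining 26 were higher by more than 0.2, among them 11 probe sets of Klf2, Rhob, Ppm1k, Ptbp2 and Dennd4a that were higher by more than 1. Limma called 15 probe sets of 9 genes higher with P/I in CHX, against 10.2% of all probe sets. All P/I arrays read above all unstimulated arrays in CHX for 19 members of 13 genes, as for 18.3% of all probe sets.

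**Figure D1:**
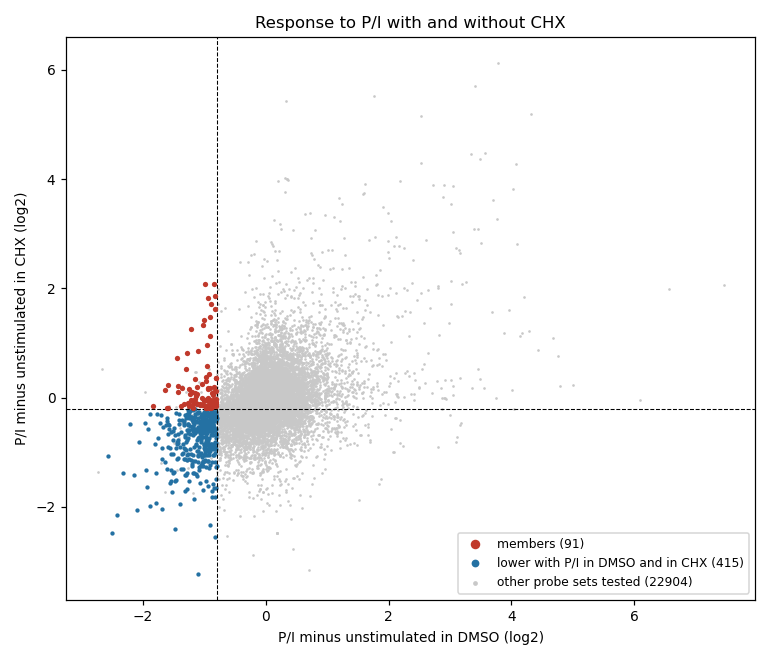
Difference between P/I-stimulated and unstimulated cells in DMSO (x axis, log2) and in CHX (y axis, log2), 1 point per probe set tested, with dashed lines at the limits of -0.8 and -0.2. The 91 members lie left of the vertical and above the horizontal line, the 415 probe sets that were lower in both arms lie below it, and most members sit close to the horizontal line at a median of -0.02.

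The limits favor CHX P/I levels near or above those of unstimulated cells wherever CHX unstimulated cells lay close to DMSO unstimulated cells. The CHX P/I mean lay within 0.2 of the DMSO unstimulated mean for 40 of 91 members. The CHX P/I mean lay nearer to the DMSO unstimulated than to the DMSO P/I mean for 91 of 91 members, and above the DMSO unstimulated mean for 65. The CHX P/I mean minus the DMSO unstimulated mean ran from log2 -0.35 to 2.33, with a median of 0.21. Dbp had the lowest difference and a probe set of Dennd4a the highest. As a comparison, 415 probe sets outside the left-out symbols were lower with P/I by 0.8 or more in DMSO and by more than 0.2 in CHX. Of these, 201 had a CHX P/I mean nearer to the DMSO unstimulated mean, and 5 had one above it. In CHX unstimulated cells 90 members lay within 0.5 of DMSO unstimulated cells, against 407 of the 415 probe sets of the comparison set. Within 0.25 lay 62 members and 338 of the 415. The CHX unstimulated mean was above the DMSO unstimulated mean for 80 members and 342 of the 415, as for 10501 of 23410 probe sets tested.

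**Figure D2:**
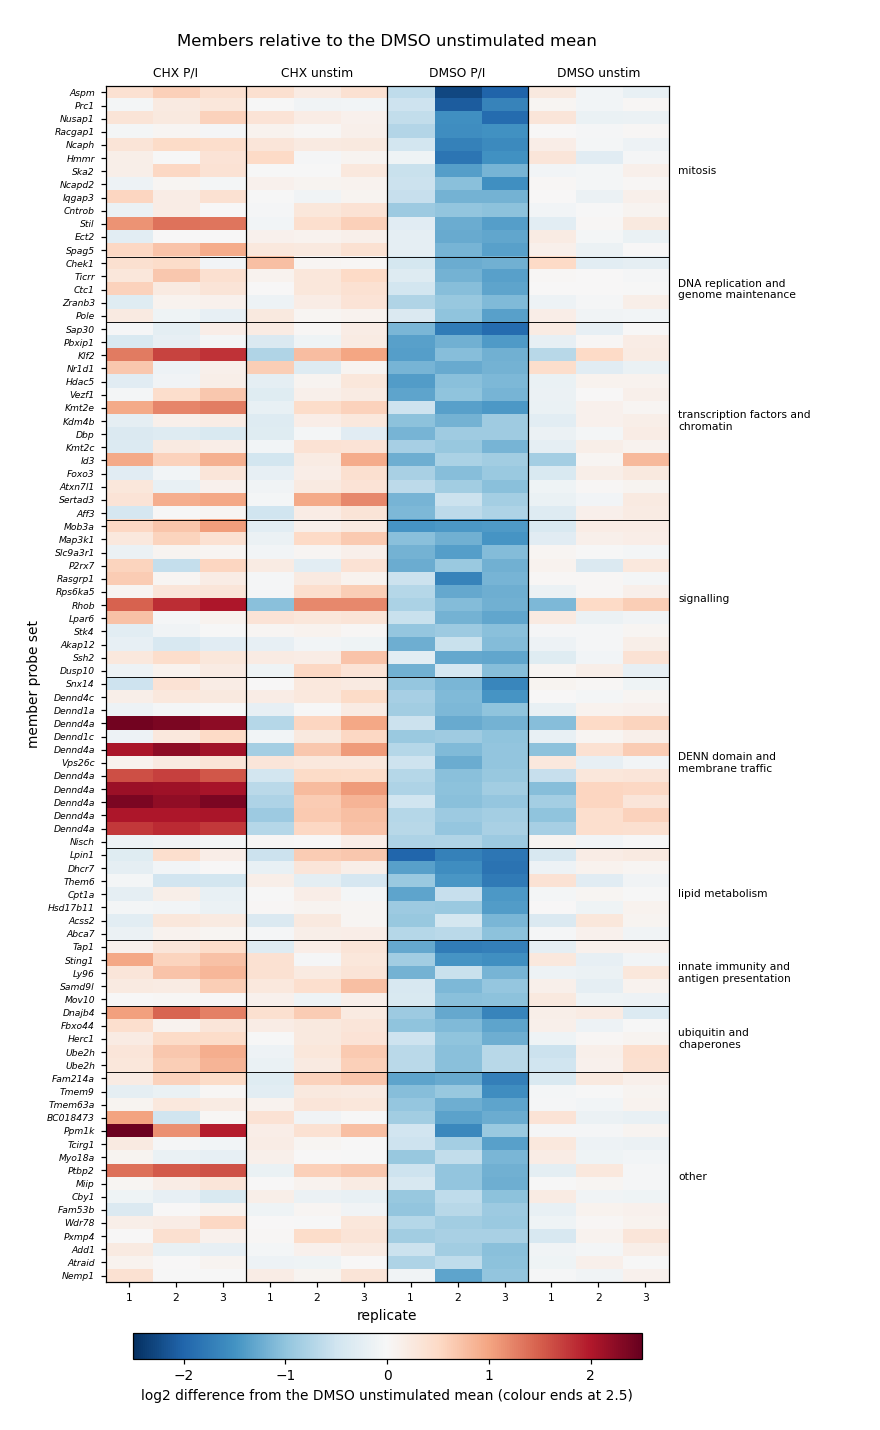
Log2 difference of each of the 12 arrays from the DMSO unstimulated mean, for the 91 member probe sets (rows, by role and then by the size of the decrease with P/I in DMSO), with the replicates of each group side by side. The DMSO P/I columns are blue in nearly all rows, the CHX P/I columns are near white or red, and the rows of Dennd4a, Klf2, Kmt2e, Dnajb4, Rhob, Ppm1k, Ptbp2 and Stil are red in CHX P/I cells.

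A contrast that the rule did not use is the average CHX effect, the mean of both CHX groups minus the mean of both DMSO groups, which is orthogonal to both differences that chose the members. It was tested with limma over all 23410 probe sets. The average was higher with CHX for 87 of the 91 members (80 of 84 genes) and lower for none, against 10.9% of all probe sets higher and 7.53% lower. At an unadjusted p under 0.05 from the same limma fit 91 members were higher and none lower, against 13.9% and 10.7%. The median average effect was 0.75 over the members, 0.31 over the 415 probe sets lower in both arms, of which 191 were higher and 8 lower, and -0.02 over all probe sets. This contrast is not a separate sign of an effect of CHX on the response to P/I. The rule fixes the difference between the responses at 0.6 or more, and where CHX leaves unstimulated cells alone the average must then be 0.3 or more. In unstimulated cells the CHX minus DMSO difference of the members ran from -0.21 to 0.70 with a median of 0.16, and after P/I it ran from 0.63 to 3.32 with a median of 1.29. After P/I all CHX arrays read above all DMSO arrays for 90 members, as for 15.3% of all probe sets. In the limma fit, where this contrast shares arrays with the rule, 91 members were higher with CHX after P/I (13.2% of all probe sets) and none lower (12%). In unstimulated cells all CHX arrays read above all DMSO arrays for 13 members, as for 7.06% of all probe sets.

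**Figure D3:**
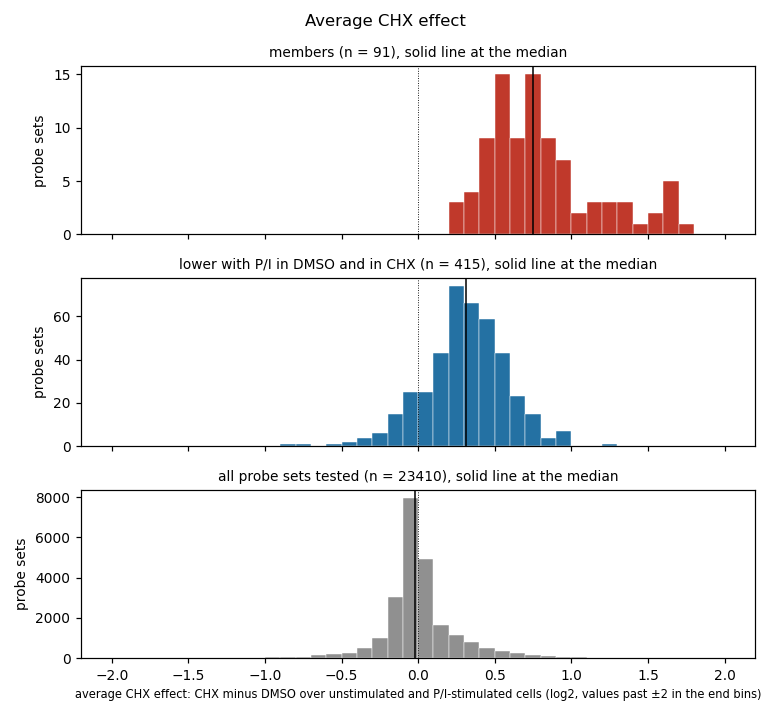
Histograms of the average CHX effect (x axis, log2, CHX minus DMSO over unstimulated and P/I-stimulated cells; y axis, number of probe sets) for the 91 members, for the 415 probe sets lower with P/I in both arms, and for all 23410 probe sets tested. The members lie between 0.21 and 1.79 with a median of 0.75, against medians of 0.31 and -0.02.

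The 4 members that did not pass were Them6 (average effect 0.44, adjusted p = 0.102 from limma), Dbp (0.21, adjusted p = 0.105), Akap12 (0.27, adjusted p = 0.120) and Aff3 (0.36, adjusted p = 0.176). Their CHX P/I means differed from the DMSO unstimulated means by log2 -0.35 to -0.13. All 4 passed when the fit held a term for the replicate number. By leaving out replicate 2 or replicate 3 of all groups the count of 87 became 55 and 44.

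Genes of chromosome segregation and cytokinesis made up 13 of the 84 member genes. They were subunits of condensin I (Ncaph, Ncapd2), microtubule and spindle proteins (Aspm, Prc1, Nusap1, Hmmr, Spag5), a kinetochore subunit (Ska2), centriole proteins (Stil, Cntrob), and Racgap1, Ect2 and Iqgap3, of which Racgap1 and Ect2 direct the contractile ring. In DMSO they were lower with P/I by log2 0.92 to 1.63, and in CHX their differences were -0.19 to 0.96. All 13 had an average CHX effect that passed the test, with values of 0.47 to 1.27, where 10.9% of all probe sets were higher. The rule largely sets the sign of this average where CHX leaves unstimulated cells alone. Counts of called members, here and for the roles below, are therefore descriptions and not separate results about a role. In bulk samples fewer dividing cells and less of these mRNAs per cell cannot be told apart.

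Promoter sequences of 5 of these genes are shown because they carry a pair of elements close to the annotated start. The pair is known from promoters of genes of late cell cycle phases. It holds the CCAAT box, bound by the factor NF-Y, and the cell cycle genes homology region (CHR), bound by complexes that regulate such genes. Klf2 is shown beside these 5 genes as a member whose stretch holds neither element. Each run holds 130 bases before and 20 bases after the start from RefSeq (GRCm38.p6), 5′ to 3′ on the strand of the gene, and capitals mark CCAAT or ATTGG and the CHR core TTTGAA or TTCAAA on either strand.
Aspm, chr1:139454643-139454792, plus strand: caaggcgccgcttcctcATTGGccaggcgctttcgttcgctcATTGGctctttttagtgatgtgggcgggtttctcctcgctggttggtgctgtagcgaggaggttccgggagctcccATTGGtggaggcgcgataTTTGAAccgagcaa
Prc1, chr7:80294321-80294470, plus strand: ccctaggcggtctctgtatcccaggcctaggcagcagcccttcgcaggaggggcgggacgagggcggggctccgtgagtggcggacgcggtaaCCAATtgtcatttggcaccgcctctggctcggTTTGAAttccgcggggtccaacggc
Hmmr, chr11:40733418-40733567, minus strand: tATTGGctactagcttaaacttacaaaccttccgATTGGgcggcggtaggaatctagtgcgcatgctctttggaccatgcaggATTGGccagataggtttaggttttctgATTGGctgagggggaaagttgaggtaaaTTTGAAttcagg
Racgap1, chr15:99651637-99651786, minus strand: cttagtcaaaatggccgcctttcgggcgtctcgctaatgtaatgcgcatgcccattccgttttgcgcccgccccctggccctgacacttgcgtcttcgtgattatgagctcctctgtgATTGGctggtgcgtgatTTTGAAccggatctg
Spag5, chr11:78301461-78301610, plus strand: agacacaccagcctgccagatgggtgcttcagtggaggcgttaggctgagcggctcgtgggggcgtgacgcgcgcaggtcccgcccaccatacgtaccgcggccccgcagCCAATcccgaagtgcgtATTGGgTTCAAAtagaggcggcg
Klf2, chr8:72318932-72319081, plus strand: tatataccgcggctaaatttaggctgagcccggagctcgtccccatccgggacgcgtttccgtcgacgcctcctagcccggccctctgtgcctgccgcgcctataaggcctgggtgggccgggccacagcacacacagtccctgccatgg

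RefSeq windows of 300 bases (250 before and 50 after a start) were at hand for 74 of the 84 member genes, 12 of them in the mitosis group. CCAAT or its complement stood in the windows of 9 of these 12 mitosis genes, of 31 of the other 62 members and of 43.2% of 5897 genes with a mean of log2 7 or more on these arrays. TTTGAA or its complement stood in 8 of 12, in 6 of 62 and in 14% of the expressed genes. Both in 1 window, a pair counted after the single motifs had been seen, stood in 7 of 12, in 3 of 62 and in 5.94% of expressed genes. Over all 27025 genes with a window the shares were 41.1%, 20.2% and 7.97%. Over all 74 members, against the expressed genes, the shares were 82.4% against 72.7% for the GC box (GGGCGG), 25.7% against 26.5% for the E2F core (GGCGGGA), 2.7% against 3.02% for the forkhead core (GTAAACA), 4.05% against 3.66% for the AP-1 core (TGACTCA), 8.11% against 7.12% for the CRE core (TGACGTC) and 17.6% against 15.7% for the E protein box (CAGCTG). The ETS core (CCGGAAG) stood in 13.5% against 25%, the E box (CACGTG) in 8.11% against 13% and the YY1 core (AAGATGG) in 1.35% against 9.33%. A match of so few letters is a description of the sequence and not a binding site.

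Aspm, which organizes spindle poles, had the largest decrease of the mitosis members. It read log2 8.76, 8.99 and 8.77 in CHX P/I cells, 8.78, 8.58 and 8.76 in CHX unstimulated cells, 7.75, 6.11 and 6.39 in DMSO P/I cells and 8.63, 8.32 and 8.20 in DMSO unstimulated cells. The DMSO P/I arrays were the lowest of all, and the other 9 lay close together. Its average CHX effect was 1.21 (SE 0.22, adjusted p = 0.00341 from limma), or 2.31-fold. Prc1, which bundles the microtubules of the central spindle, read 9.41, 9.68 and 9.74 in CHX P/I cells, 9.44, 9.36 and 9.39 in CHX unstimulated cells, 8.93, 7.38 and 7.77 in DMSO P/I cells and 9.50, 9.38 and 9.48 in DMSO unstimulated cells. Here too the DMSO P/I arrays stood alone, with replicate 1 much less low than the other two.

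That unevenness ran through the whole group. Replicate 1 was the highest of the DMSO P/I arrays for 13 of 13 mitosis members and for 62 of the 91 members. For Hmmr, a spindle assembly factor, the DMSO P/I arrays read 7.85, 6.13 and 6.44, against 8.27, 7.68 and 7.94 in DMSO unstimulated cells, so that replicate 1 fell inside the unstimulated range. Ect2, the exchange factor that activates RhoA for cytokinesis, read 9.56, 8.55 and 8.49 with P/I and 10.01, 9.74 and 9.64 without, in DMSO. The average CHX effects of both were the least secure of the group, at 0.75 for Hmmr (SE 0.25, adjusted p = 0.0684 from limma) and 0.47 for Ect2 (SE 0.16, adjusted p = 0.0787), and the calls were lost in 10 and 11 of 15 fits that left out arrays.

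The arrays of Racgap1 were closer together. This subunit of centralspindlin read 10.48, 10.58 and 10.50 in CHX P/I cells, 10.62, 10.56 and 10.66 in CHX unstimulated cells, 9.79, 8.98 and 9.01 in DMSO P/I cells and 10.53, 10.50 and 10.55 in DMSO unstimulated cells. The CHX P/I mean thus differed by log2 -0.01 from the DMSO unstimulated mean, and DMSO P/I cells were 2.41-fold lower than DMSO unstimulated cells. Stil, needed for centriole duplication, had the largest difference of the group with P/I in CHX. Its CHX P/I arrays read 10.01, 10.25 and 10.22, above the 8.82, 9.31 and 9.49 of CHX unstimulated cells, while DMSO P/I arrays read 8.61, 7.66 and 7.52 and DMSO unstimulated arrays 8.62, 8.92 and 9.14. It had the largest average CHX effect of the mitosis members, at 1.27 (SE 0.18, adjusted p = 0.000737 from limma).

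The wider list of mitosis and chromosome segregation genes, of which 47 were measured and 9 were members, moved the same way in part. With P/I in DMSO 26 were lower and 1 was higher in limma, against 8.42% and 9.05% of all probe sets, with a median difference of -0.52 against -0.03. In CHX 6 were lower with P/I and 3 higher, against 11.6% and 10.2%, with a median of -0.10 against 0.02. The average CHX effect was higher for 28 and lower for 1, against 10.9% and 7.53% of all probe sets.

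Genes of DNA replication and genome maintenance gave 5 members, all with a called average CHX effect, against 10.9% of all probe sets higher. They were Chek1, the checkpoint kinase that restrains entry into mitosis, Pole, the catalytic subunit of DNA polymerase epsilon, Ticrr, needed for origin firing, Ctc1, which protects telomeres, and Zranb3, which remodels stalled forks. P/I in DMSO left them lower by log2 0.91 to 0.96, and with P/I in CHX their differences were -0.16 to 0.17. Chek1 read 9.56, 9.62 and 9.09 in CHX P/I cells, 9.91, 9.22 and 9.19 in CHX unstimulated cells, 8.72, 7.92 and 7.96 in DMSO P/I cells and 9.65, 8.89 and 8.94 in DMSO unstimulated cells. Replicate 1 was the highest in 3 of the 4 groups, yet the DMSO P/I arrays stayed below the others. Its average CHX effect was 0.75 (SE 0.20, adjusted p = 0.0228 from limma).

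Most replication and repair genes were not members, since they were also lower with P/I in CHX or changed less. Of 49 measured DNA replication genes 20 were lower and 1 higher with P/I in DMSO, and 10 were lower and 1 higher with P/I in CHX, with medians of -0.39 and -0.31. The shares over all probe sets were 8.42% lower and 9.05% higher in DMSO, and 11.6% lower and 10.2% higher in CHX. Of 55 measured DNA repair genes 24 were lower and 4 higher in DMSO, and 16 were lower and 4 higher in CHX, with medians of -0.39 and -0.28.

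Transcription factors and chromatin regulators made up 15 members, 13 of them with a called average CHX effect, against 10.9% of all probe sets higher. As for the other roles, the rule favors a positive average, so this count is a description. Klf2, which keeps T cells quiescent and in circulation, was the most responsive to CHX among them. Its arrays read 9.41, 9.81 and 9.91 in CHX P/I cells, 7.36, 8.89 and 9.09 in CHX unstimulated cells, 6.73, 7.05 and 6.92 in DMSO P/I cells and 7.41, 8.60 and 8.32 in DMSO unstimulated cells. The 3 CHX P/I arrays lay above all others and the 3 DMSO P/I arrays below all others. Replicate 1 of both unstimulated groups was low, so that the decrease with P/I in DMSO was log2 0.68 for replicate 1 and 1.48 for replicates 2 and 3 together. The average CHX effect was 1.57 (SE 0.28, adjusted p = 0.00294 from limma), or 2.98-fold.

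Id3, an inhibitor of E proteins, read 7.02, 6.64 and 6.96 in CHX P/I cells, 5.61, 6.28 and 7.0 in CHX unstimulated cells, 4.86, 5.29 and 5.21 in DMSO P/I cells and 5.22, 6.12 and 6.88 in DMSO unstimulated cells. Both unstimulated groups spread over more than log2 1, and replicate 1 of DMSO unstimulated cells lay within the range of the DMSO P/I arrays. Its average effect was 0.99 (SE 0.27, adjusted p = 0.0309 from limma). Foxo3, a forkhead factor that is held in the nucleus of resting cells, was lower by 0.93 with P/I in DMSO and by 0.14 in CHX, with an average CHX effect of 0.52 (SE 0.14, adjusted p = 0.0282). Of 29 measured genes of T cell quiescence and homing, Foxo3 and Klf2 were the 2 members, and the list as a whole was split, with 5 lower and 6 higher with P/I in DMSO.

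Sap30, a subunit of the Sin3 histone deacetylase complex, had the largest decrease of this group. It read 8.0, 7.79 and 8.20 in CHX P/I cells, 8.25, 8.07 and 8.23 in CHX unstimulated cells, 6.89, 6.29 and 6.11 in DMSO P/I cells and 8.24, 7.82 and 8.05 in DMSO unstimulated cells. The DMSO P/I arrays did not overlap the others, and the average CHX effect was 0.86 (SE 0.13, adjusted p = 0.000936 from limma). The deacetylase Hdac5, the histone demethylase Kdm4b and the histone methyltransferase Kmt2c had CHX P/I means close to the DMSO unstimulated means. The differences were log2 -0.08 to 0.03. Kmt2e, a relative of Kmt2c, was instead higher with P/I in CHX, with CHX P/I arrays at 9.93, 10.19 and 10.25, CHX unstimulated arrays at 8.79, 9.44 and 9.57, DMSO P/I arrays at 8.47, 7.63 and 7.56 and DMSO unstimulated arrays at 8.82, 9.10 and 9.03. Over 55 measured histone and DNA modifying enzymes 10 were lower and 8 higher with P/I in DMSO, so that these members do not stand for the list.

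The clock gene Nr1d1, which encodes the repressor REV-ERBα, and the clock output factor Dbp were both members, of 16 clock genes measured. Nr1d1 read 7.67, 6.87 and 7.12 in CHX P/I cells, 7.61, 6.67 and 7.06 in CHX unstimulated cells, 5.82, 5.74 and 5.82 in DMSO P/I cells and 7.44, 6.71 and 6.83 in DMSO unstimulated cells. Replicate 1 was the highest in both CHX groups and in DMSO unstimulated cells, and the DMSO P/I arrays lay together far below. Dbp differed in that the CHX groups lay below DMSO unstimulated cells. It read 6.55, 6.58 and 6.52 in CHX P/I cells, 6.60, 6.86 and 6.63 in CHX unstimulated cells, 5.74, 6.01 and 6.01 in DMSO P/I cells and 6.76, 6.86 and 7.10 in DMSO unstimulated cells. Pbxip1, a partner of PBX factors, was lower by 1.33 with P/I in DMSO and by 0.12 in CHX, and its average CHX effect was 0.52 (SE 0.10, adjusted p = 0.00566 from limma). The others were Vezf1, Atxn7l1, Sertad3 and Aff3, with decreases of 0.85 to 1.16 in DMSO. A second Atxn7l1 probe set, 10395287, did not meet the rule and differed the other way, by 0.56 with P/I in DMSO and 0.88 in CHX. Sertad3 had the largest CHX minus DMSO difference of all members in unstimulated cells, at 0.70.

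**Figure D4:**
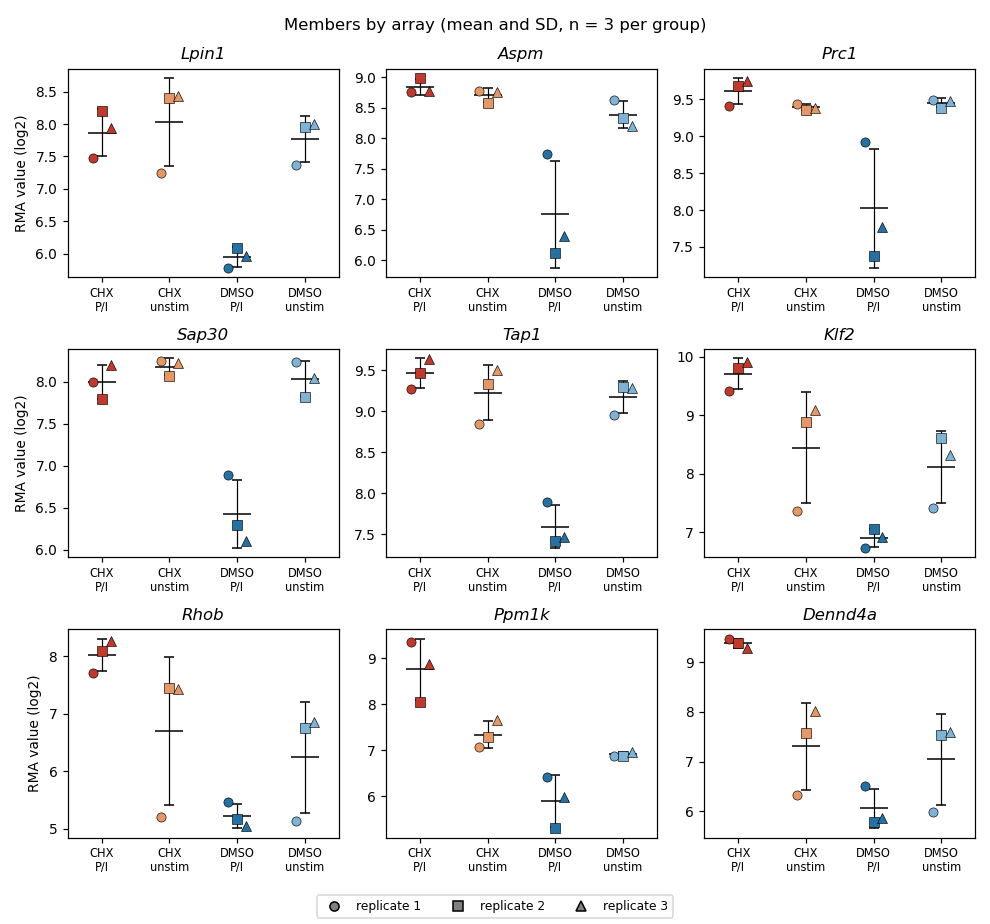
RMA values (y axis, log2) of 9 members on each array, with CHX P/I, CHX unstimulated, DMSO P/I and DMSO unstimulated cells along the x axis, a symbol for each replicate, and the mean and SD of the 3 arrays. DMSO P/I arrays are the lowest in every panel but those of Rhob and Dennd4a, where replicate 1 of DMSO unstimulated cells reaches them, and for Dennd4a (probe set 10586252) the CHX P/I arrays stand at 9.28 to 9.46.

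Signaling molecules gave 12 members, 11 with a called average CHX effect, against 10.9% of all probe sets higher. Rasgrp1, the diacylglycerol-responsive Ras exchange factor that phorbol esters also bind, was among the brightest members. It read 11.89, 11.30 and 11.44 in CHX P/I cells, 11.23, 11.48 and 11.35 in CHX unstimulated cells, 10.72, 9.58 and 10.10 in DMSO P/I cells and 11.28, 11.29 and 11.20 in DMSO unstimulated cells. The DMSO P/I arrays lay below the rest, and the CHX P/I arrays lay just above the DMSO unstimulated arrays. Its average CHX effect was 0.75 (SE 0.16, adjusted p = 0.00855 from limma). It was the only member among 28 measured genes of T cell receptor signaling, a list with 13 higher and 6 lower with P/I in DMSO.

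Kinases and phosphatases of the MAP kinase and Hippo pathways were also members. Map3k1, which activates the JNK pathway, was lower by 1.24 with P/I in DMSO and differed by 0.07 in CHX. Rps6ka5, a nuclear kinase downstream of MAP kinases, was lower by 1.08, and Stk4, the Hippo kinase MST1, by 0.97. Dusp10, a phosphatase that switches off JNK and p38 kinases, was lower by 0.90 in DMSO and by 0.19 in CHX. Mob3a, of the family of kinase coactivators MOB, read 9.37, 9.54 and 9.89 in CHX P/I cells, 8.59, 8.97 and 9.08 in CHX unstimulated cells, 7.37, 7.40 and 7.43 in DMSO P/I cells and 8.47, 9.03 and 9.03 in DMSO unstimulated cells. P/I arrays thus lay above the unstimulated arrays in CHX and below them in DMSO. Its average CHX effect was 1.12 (SE 0.13, adjusted p = 0.000143 from limma).

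In Rhob, a small GTPase of endosomes, replicate 1 stood apart. It read 7.71, 8.08 and 8.27 in CHX P/I cells, 5.21, 7.44 and 7.44 in CHX unstimulated cells, 5.46, 5.17 and 5.04 in DMSO P/I cells and 5.13, 6.75 and 6.85 in DMSO unstimulated cells. In DMSO, replicate 1 did not differ in the direction of the mean, at 0.33 with P/I minus unstimulated, against -1.70 for replicates 2 and 3 together. CHX P/I arrays lay above all others in all replicates. The average CHX effect was 1.63 (SE 0.40, adjusted p = 0.0164 from limma). The receptors P2rx7, an ATP-gated channel, and Lpar6, for lysophosphatidic acid, were lower by 1.12 and 1.01 with P/I in DMSO, and the scaffolds Slc9a3r1 and Akap12 by 1.21 and 0.96.

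Regulators of membrane traffic gave 7 genes with 13 probe sets, all called for the average CHX effect, against 10.9% of all probe sets higher. Proteins with a DENN domain are exchange factors for Rab GTPases, and Dennd1a, Dennd1c, Dennd4a and Dennd4c were members. Dennd4c read 8.68, 8.80 and 8.78 in CHX P/I cells, 8.72, 8.80 and 9.01 in CHX unstimulated cells, 7.71, 7.43 and 7.06 in DMSO P/I cells and 8.54, 8.48 and 8.59 in DMSO unstimulated cells. Its DMSO P/I arrays lay far below the rest, and the average CHX effect was 0.83 (SE 0.10, adjusted p = 0.000185 from limma). Dennd1a and Dennd1c were lower by 1.00 and 0.94 with P/I in DMSO and by 0.06 and 0.02 in CHX. Of 16 genes measured whose symbols start with Dennd, a family singled out after its values were seen and counted by the brightest probe set of each gene, 3 were lower and 2 higher with P/I in DMSO.

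Dennd4a had the largest CHX effect of all members. Its probe set 10586252 read 9.46, 9.39 and 9.28 in CHX P/I cells, 6.33, 7.58 and 8.02 in CHX unstimulated cells, 6.51, 5.79 and 5.87 in DMSO P/I cells and 5.99, 7.54 and 7.60 in DMSO unstimulated cells. CHX P/I arrays were the highest by a wide margin, and replicate 1 of DMSO unstimulated cells lay among the DMSO P/I arrays. The average CHX effect was 1.79 (SE 0.32, adjusted p = 0.00279 from limma), or 3.46-fold. Over the 7 member probe sets, which share the gene and are not independent, the difference with P/I was -0.99 to -0.82 in DMSO and 1.47 to 2.07 in CHX, and the average CHX effect was 1.34 to 1.79. Only 1 of the 7 passed the limma test for the decrease with P/I in DMSO. Probe sets 10586242 and 10586250 of the same gene, at -0.66 and -0.78 in DMSO, missed the rule. Snx14, a sorting nexin, Vps26c, a subunit of the endosomal retriever complex, and Nisch completed the group, with decreases of 0.81 to 1.25 in DMSO.

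Lipid metabolism gave 7 members and held the largest decrease of all. Of the 7, 6 were called for the average CHX effect, against 10.9% of all probe sets higher. Lpin1, a phosphatidate phosphatase that makes diacylglycerol, read 7.47, 8.20 and 7.94 in CHX P/I cells, 7.24, 8.41 and 8.44 in CHX unstimulated cells, 5.78, 6.09 and 5.96 in DMSO P/I cells and 7.36, 7.95 and 8.0 in DMSO unstimulated cells. All DMSO P/I arrays were more than log2 1 below every other array. DMSO P/I cells were 3.55-fold lower than DMSO unstimulated cells, and the average CHX effect was 1.09 (SE 0.21, adjusted p = 0.00455 from limma). Dhcr7, which catalyzes the last step of cholesterol synthesis, was 3.01-fold lower with P/I in DMSO. It read 8.74, 8.88 and 8.97 in CHX P/I cells, 8.77, 9.26 and 9.11 in CHX unstimulated cells, 7.59, 7.40 and 7.10 in DMSO P/I cells and 8.82, 9.03 and 9.01 in DMSO unstimulated cells, with an average CHX effect of 0.80 (SE 0.10, adjusted p = 0.000337 from limma).

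Cpt1a, which admits fatty acids to mitochondria for oxidation, read 9.07, 9.45 and 9.10 in CHX P/I cells, 9.28, 9.46 and 9.24 in CHX unstimulated cells, 7.98, 8.71 and 7.85 in DMSO P/I cells and 9.24, 9.35 and 9.29 in DMSO unstimulated cells. The CHX P/I mean differed by log2 -0.09 from the DMSO unstimulated mean. Acss2, which makes acetyl-CoA from acetate, the steroid dehydrogenase Hsd17b11, the lipid transporter Abca7 and Them6 were lower by 0.80 to 1.39 with P/I in DMSO and differed by -0.16 to 0.11 in CHX. Of 26 measured genes of cholesterol and fatty acid synthesis 7 were lower and none higher with P/I in DMSO, and 8 were lower and 1 higher with P/I in CHX, with Dhcr7 the only member. Of 33 measured genes of the Krebs cycle and fatty acid oxidation 11 were lower and none higher in DMSO, 7 were lower and none higher in CHX, and Cpt1a was the only member. Over all probe sets 8.42% were lower with P/I in DMSO and 11.6% in CHX.

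Of 5 members with roles in innate immunity and antigen presentation all were called for the average CHX effect, against 10.9% of all probe sets higher. Tap1, a subunit of the transporter that supplies peptides to MHC class I, was 3.00-fold lower with P/I in DMSO. It read 9.28, 9.47 and 9.64 in CHX P/I cells, 8.85, 9.33 and 9.50 in CHX unstimulated cells, 7.89, 7.42 and 7.47 in DMSO P/I cells and 8.95, 9.29 and 9.29 in DMSO unstimulated cells. No DMSO P/I array came within log2 0.9 of another array, and the average CHX effect was 0.96 (SE 0.13, adjusted p = 0.000421 from limma). Sting1, the adaptor that signals the presence of cytosolic DNA, read 10.33, 9.91 and 10.09 in CHX P/I cells, 9.75, 9.34 and 9.65 in CHX unstimulated cells, 8.50, 7.88 and 7.83 in DMSO P/I cells and 9.63, 9.17 and 9.30 in DMSO unstimulated cells. CHX P/I arrays lay above all others and DMSO P/I arrays below all others, with an average CHX effect of 1.13 (SE 0.13, adjusted p = 0.0002 from limma). Ly96, the coreceptor MD-2 of Toll-like receptor signaling, Samd9l and the RNA helicase Mov10 were lower by 0.82 to 0.97. None of the 27 measured genes of a fixed list of interferon-stimulated genes was a member. That list did not hold the 5 genes above, so it does not show whether members are induced by interferon.

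The ubiquitin and chaperone members were 4 genes with 5 probe sets, all called for the average CHX effect, against 10.9% of all probe sets higher. Dnajb4, a cochaperone of HSP70, read 9.83, 10.25 and 10.05 in CHX P/I cells, 9.20, 9.42 and 9.02 in CHX unstimulated cells, 7.89, 7.51 and 7.14 in DMSO P/I cells and 8.94, 9.0 and 8.45 in DMSO unstimulated cells. P/I arrays lay above unstimulated arrays in CHX and below them in DMSO, and the average CHX effect was 1.48 (SE 0.14, adjusted p = 5.2e-05 from limma), or 2.78-fold. Both probe sets of Ube2h, a ubiquitin-conjugating enzyme, gave close values, with -0.81 and -0.80 in DMSO and 0.36 and 0.37 in CHX. The ubiquitin ligase Herc1 and the F-box protein Fbxo44 were lower by 0.91 and 1.14 in DMSO.

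Of the 16 members of other or less certain roles, Ppm1k and Ptbp2 had CHX effects close to that of Dennd4a. Ppm1k, a mitochondrial phosphatase that activates the breakdown of branched-chain amino acids, read 9.37, 8.05 and 8.88 in CHX P/I cells, 7.07, 7.29 and 7.66 in CHX unstimulated cells, 6.43, 5.31 and 5.99 in DMSO P/I cells and 6.89, 6.88 and 6.97 in DMSO unstimulated cells. P/I arrays lay above every unstimulated array in CHX and below every one in DMSO, with an average CHX effect of 1.64 (SE 0.23, adjusted p = 0.000508 from limma). Ptbp2, a splicing regulator, read 9.99, 10.15 and 10.20 in CHX P/I cells, 8.44, 9.20 and 9.29 in CHX unstimulated cells, 8.10, 7.62 and 7.41 in DMSO P/I cells and 8.37, 8.88 and 8.58 in DMSO unstimulated cells, with an average CHX effect of 1.39 (SE 0.16, adjusted p = 0.000168). Fam214a was 2.69-fold lower with P/I in DMSO, and its CHX P/I mean lay log2 0.42 above the DMSO unstimulated mean. Tcirg1, a subunit of the vacuolar proton pump, the spectrin-binding protein Add1, the peroxisomal protein Pxmp4 and the myosin Myo18a stayed within 0.2 of CHX unstimulated cells after P/I. The 16 together were lower by 0.80 to 1.43 in DMSO, and their average CHX effects were 0.29 to 1.64.

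Over all members the decrease was smallest in replicate 1. Taken by replicate number, the median difference with P/I in DMSO over the 91 members was -0.69, -1.15 and -1.29 for replicates 1, 2 and 3, and 83, 91 and 91 members were below 0. The lipid metabolism members were an exception, with medians of -1.23, -0.82 and -1.49, as were those of innate immunity and antigen presentation, with -1.05, -0.94 and -1.44. The 8 above 0 in replicate 1 belonged to Dennd4a, Rhob and Ssh2, a cofilin phosphatase. The median average CHX effect was 0.49, 0.79 and 0.90, above 0 for 90, 91 and 91 members. Dennd4a, Id3, Klf2, Lpin1 and Rhob had replicate 1 at least log2 0.5 below both other replicates in both unstimulated groups. Without replicate 1 of DMSO P/I cells 165 probe sets met the rule, 87 of the 91 members among them.

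Around the limits the values ran on without a gap. Just inside -0.8 with P/I in DMSO lay Nemp1 (-0.80), the lower Ube2h probe set (-0.80) and Abca7 (-0.80), and just outside lay Nr1d2, Eri2 and Elf1 (-0.80 for each after rounding). Just inside -0.2 with P/I in CHX lay Kmt2c (-0.20), Dusp10 (-0.19) and Tmem9 (-0.19), and just outside lay Tspan4, Necab3 and Scrn3 (all -0.22).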

How the data were processed

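The series holds 12 Affymetrix Mouse Gene 1.0ST arrays of EL-4 cells, 3 biological replicates in each of 4 groups. The deposited values are log2 robust multichip average (RMA) values, which the authors made with Partek software by background correction adjusting for probe sequence, quantile normalization and summarization per probe set; software versions are not given in the sources used here. Of 35399 probe sets, the 23410 with at least 1 symbol in the platform annotation were tested, and genes were named from probe sets with 1 symbol. All 84 member genes matched the RefSeq gene table by gene ID. Sequences were RefSeq promoter windows (GRCm38.p6).

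A mean per group was fitted with limma 3.58.1 in R 4.3.3 (8 residual degrees of freedom), with Benjamini-Hochberg adjustment over all 23410 probe sets and calls under 0.1. Members and gene lists were chosen with earlier results of these data known. Differences that the rule used or that share its arrays are descriptions, with limma calls on them given beside their background only. The average CHX effect was the only contrast tested for the members. It uses the same arrays, and the rule largely sets its sign where CHX leaves unstimulated cells alone. Its calls are therefore not separate support for the members. For gene lists the brightest probe set with 1 symbol stood for a gene, and a list of replication-dependent histones had no measured gene. Named members were the 12 with the largest decrease with P/I in DMSO, the 8 with the largest positive called average CHX effects (no called effect was negative), all in a fixed list, those with several probe sets and the 3 nearest each limit; others were added for their roles. The fit was tested on simulated data: with 200 changed of 23410 probe sets, 36 of 50 changed by log2 0.5 were called and 50 of 50 changed by log2 1. The simulated noise was independent between arrays and the change was equal in both CHX groups. Neither holds for the members, so these shares check the fit and do not carry over to them. The number of arrays limits the precision. No label gives same-numbered arrays a shared source, so replicate numbers were not used as pairs in the main fit. Deviations of same-numbered arrays of different groups did correlate, at 0.06 to 0.75, with 17 of 18 pairs over 0.1. The main p-values leave this out. Alternatives covered scaling, filters, thresholds, variance models, a replicate term, limits of the rule and left-out arrays.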

Additional observations from a re-analysis of the deposited data

Results flagged for a closer look

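For 12 members every P/I array lay below every unstimulated array in DMSO and above every one in CHX, as for 257 of the 23410 probe sets tested (1.1%). The difference between the responses (P/I minus unstimulated in CHX, less the same in DMSO, log2) was 2.48 for Klf2, 2.43 for Ppm1k, 2.37 for a probe set of Dennd4a, 2.16 for Mob3a, 2.11 for Dnajb4, 2.03 for Ptbp2, 1.95 for Kmt2e, 1.92 for Stil and 1.82 for Sting1. It was 1.41 for Ncaph, 1.35 for Iqgap3 and 1.34 for Spag5, all 3 of the mitosis group. The rule selects for such a difference, which was not tested here.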

How the results depend on the processing

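The count of 87 members with a higher average CHX effect changed most with the replicate left out. It was 44 to 88 when arrays were left out: 81 to 88 without any single array or without replicate 1 of all groups, 55 without replicate 2 and 44 without replicate 3 of all groups, where 4.52% and 3.23% of all probe sets were higher. It was 78 to 91 under the other alternatives, with 78 in an ordinary linear model, 83 at an adjusted p under 0.05, and 91 with a replicate block. With that block Them6 (adjusted p = 0.00108), Dbp (0.0457), Akap12 (0.0752) and Aff3 (0.00203), the 4 not called in limma without it, also passed. Correlations of deviations between same-numbered arrays of different groups ran from 0.06 to 0.75 with a median of 0.35, and 17 of 18 were over 0.1, against a median of -0.26 for arrays of different numbers. In 33 of 36 comparisons of an array with another group its own number correlated best, a hint from the data. Since 1 pair was under 0.1 and no label gives a shared source, the numbers were not taken as pairs. No member was lower in any of these fits. The number of members was 91; it was 41 with a limit of -1 in DMSO, 227 with a limit of -0.6, 44 with a limit of 0 in CHX, and 57 to 165 when arrays were left out, with 155 without replicate 1 and 57 without replicate 3 of all groups, and 165 without DMSO P/I replicate 1 alone. After median centring 81 probe sets met the rule and after quantile normalization 129, of which 80 and 90 were among the 91. The CHX P/I mean stayed nearer to the DMSO unstimulated mean for 91 members in all alternatives, and the median average effect was 0.67 to 0.85 when arrays were left out. For 41 named members, 901 of 984 alternative values kept direction and call, 68 lost the call, 15 gained it and none turned direction. The cause of these changes was not tested.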

Other observations

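The 18 probe sets that met both limits and were left out by symbol were mostly genes of cell division: Kif14, Kif11, Kif2c, Kif15, Kif4, Cenpf, Cenpe, Cenpn, Aurka, Aurkb, Plk1, Cdc25c, Cdca2, Cdca8 and Mki67, with Ccng2, Txnip and Arrdc3. Their median difference with P/I was -1.14 in DMSO and 0.10 in CHX, and all 18 had a higher average CHX effect in limma, with a median of 0.81 and a range of 0.47 to 2.96, where 10.9% of all probe sets were higher. A further 2 probe sets with several symbols and 33 with no symbol met both limits. The 33 were not tested, and their average CHX effects ran from -0.78 to 1.18 with a median of 0.53.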
